A study of Mus musculus with 12 samples.

Results

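The genes described here are 7 regulators of mRNA decay and cell growth that are known as early response genes or as their partners: Zfp36, Zfp36l1, Zfp36l2, Zc3h12a, Btg1, Btg2 and Elavl1. They were chosen by name, with earlier results of these data known, and all 7 are among the 13552 genes in the table of mouse hearts and among the 11240 genes that passed the filter on low values. RNA was sequenced from hearts 9 h after transverse aortic constriction (TAC), a surgical narrowing of the aorta that loads the heart with pressure, or after sham surgery. The mice were male, 8 to 10 weeks old and on a C57BL/6 background by the labels (C57BL/6J in the methods), and 4 groups of 3 mice each combined a genotype, WT or KI, with a surgery, sham or TAC. WT mice are wild type, and KI mice carry the Bcl-xL S14A knock-in, in which serine 14 of the survival protein Bcl-xL is replaced by alanine. The knock-in was made in the germ line, so every cell type of the heart carries it, and a selection cassette was removed by crossing to mice with Cre under the CMV promoter. The WT mice were purchased, and they are not described as littermates of the KI mice.

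ZFP36 (also called tristetraprolin), ZFP36L1 and ZFP36L2 are CCCH zinc finger proteins that bind AU-rich elements in the 3′ UTR of unstable mRNAs and recruit the CCR4-NOT deadenylase, which shortens the poly(A) tail. Zc3h12a encodes Regnase-1, an endonuclease that cleaves stem-loops in mRNAs of inflammatory genes. BTG1 and BTG2 are antiproliferative proteins that bind the deadenylase subunits CNOT7 and CNOT8, while Elavl1 encodes HuR, which binds AU-rich elements and stabilises the mRNAs that carry them. ZFP36 proteins and Regnase-1 are known for limiting inflammatory transcripts.

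The mRNAs of the ZFP36 family themselves carry AU-rich elements, and these sequences are shown because they are the elements that the family recognises. Each 3′ UTR was taken from the GENCODE M21 annotation of GRCm38 (1 transcript per gene) and was searched on the sense strand for the nonamer TTATTTATT and for the pentamer ATTTA, which the nonamer contains. The nonamer is in capitals, with 10 bases on either side.
Zfp36, chr7:28376951-28376979, minus strand: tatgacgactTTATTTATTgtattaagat
Zfp36l1, chr12:80108167-80108195, minus strand: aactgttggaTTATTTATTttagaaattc
Zfp36l2, chr17:84184914-84184942, minus strand: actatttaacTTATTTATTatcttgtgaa
Elavl1, chr8:4285788-4285816, minus strand: gtcatgaaaaTTATTTATTtatttattta
Each of the ZFP36 paralogs held 1 nonamer, whereas the 3′ UTR of Elavl1 held 8 overlapping or neighbouring ones, of which the first is shown. The nonamer began 589 bases after the stop codon in Zfp36, 1404 in Zfp36l1, 821 in Zfp36l2 and 3794 in Elavl1. Of 10608 tested genes with a transcript model, 6.84% held a nonamer and 64.7% a pentamer. Among 3′ UTRs of 0.7 to 1.4 times the same length, a nonamer was present in 5.05% for Zfp36, 8.26% for Zfp36l1, 8.22% for Zfp36l2 and 15.9% for Elavl1, and among the 1217 UTRs of the length of Elavl1 only Elavl1 itself had as many as 8. Btg1, Btg2 and Zc3h12a held no nonamer but had 11, 5 and 3 pentamers in 4166, 2199 and 856 bases. The pentamer count was 3 in Zfp36 (774 bases), 9 in Zfp36l1 (1835 bases), 5 in Zfp36l2 (1822 bases) and 17 in Elavl1 (4218 bases), against medians of 1, 3, 3 and 6 in UTRs of like length. A match in these letters is a description and not a measured binding site.

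**Figure D1:**
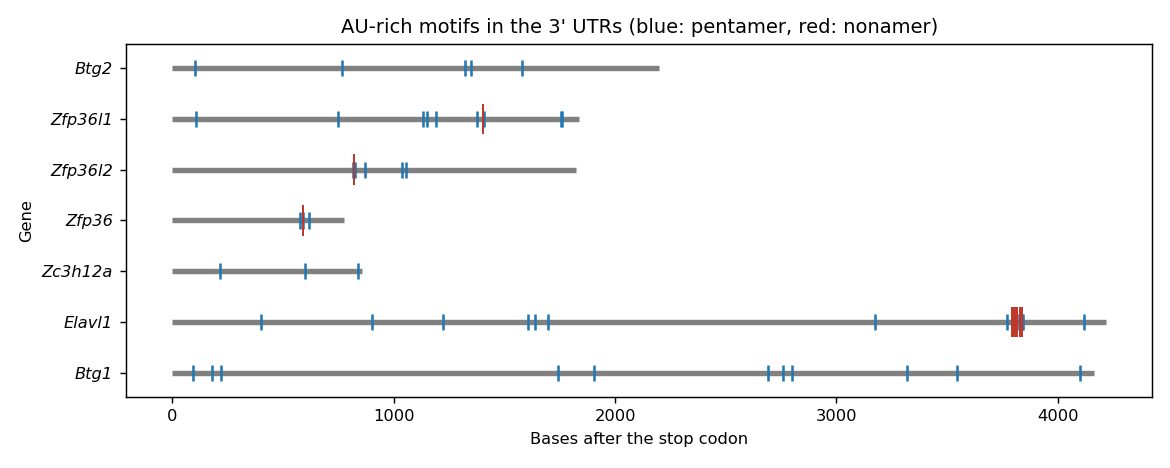
AU-rich motifs along the 3′ UTRs of the 7 genes, with the distance from the stop codon in bases on the x axis and a grey bar for each UTR. Blue ticks are pentamers and red ticks are nonamers, which are present once in each of the 3 ZFP36 paralogs and 8 times near the end of the Elavl1 UTR.

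Values are RPKM, the reads of a gene per kilobase of its exons, scaled to the size of the library. The library size, which was inferred from the RPKM values, was between 23650250 and 32455400 reads per heart. It was larger in KI TAC hearts (30298200 to 31677250) than in WT TAC hearts (25715400 to 29608650). Differences between groups are given on the log2(RPKM + 1) scale from limma fitted to all 4 groups and all genes, with adjusted p-values after Benjamini-Hochberg, and a gene was called at an adjusted p under 0.05. The median difference over all genes after TAC was 0.04 in WT hearts but −0.10 in KI hearts, and it was −0.12 between the TAC groups (KI minus WT), so a gene at 0 there lies 0.12 above the median gene. Under median-ratio scaling, which centres the genes, calls were split differently, as 51.6% of the genes called between the TAC groups were higher in KI, against 26.4% as deposited, and 51.5% against 36.8% of those called after TAC in KI hearts were higher. The knock-in is a base change that RPKM values cannot show, so the genotype labels could not be checked from the table. Bcl2l1, which encodes Bcl-xL, was expressed in every heart, at 24.5 to 37.0 RPKM in KI TAC and 6.59 to 19.1 in the other 9 hearts, without overlap. The summed RPKM of 6 cardiomyocyte markers was between 11919 and 22933 in all hearts, and 1 of the 6 was called lower for WT TAC against WT sham and 1 higher for KI TAC against WT TAC. WT TAC mouse 10 stood apart, with fibroblast markers summing to 603 RPKM against 118 to 282 in the other 11 hearts (1 of 6 fibroblast markers was called, lower for KI TAC against KI sham), and the main values without it are given beside the results. In tissue RNA, fewer cells of a type and less RNA per cell cannot be told apart. The p-values measure the spread between these mice.

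In sham hearts the genes spanned a wide range of levels per kilobase. Zfp36l1 was highest (64.4 ± 12.9 RPKM in WT sham, SD, n = 3), and Zfp36l2 followed at 36.6 ± 4.74. Zfp36 (11.6 ± 2.44) and Btg2 (10.1 ± 1.75) overlapped, Zc3h12a (4.77 ± 0.50) lay below both, and Elavl1 (2.16 ± 0.28) and Btg1 (1.59 ± 0.83) overlapped at the lowest levels. The same order was found in KI sham hearts except that Btg2 stood above Zfp36 by less than their spread. After TAC, Zfp36l1 stayed first in WT hearts, where its range overlapped that of Zfp36l2. In KI TAC hearts Btg2 was first at 125 ± 54.1 RPKM, and its lowest heart (86.9) was above the highest value of Zfp36l1 (74.6). The levels of Zfp36 and Elavl1 relative to the others depend on the length of exon used, since the exons of all their transcripts together are 1.24 and 1.80 times as long as the transcripts whose UTRs were searched.

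**Figure D2:**
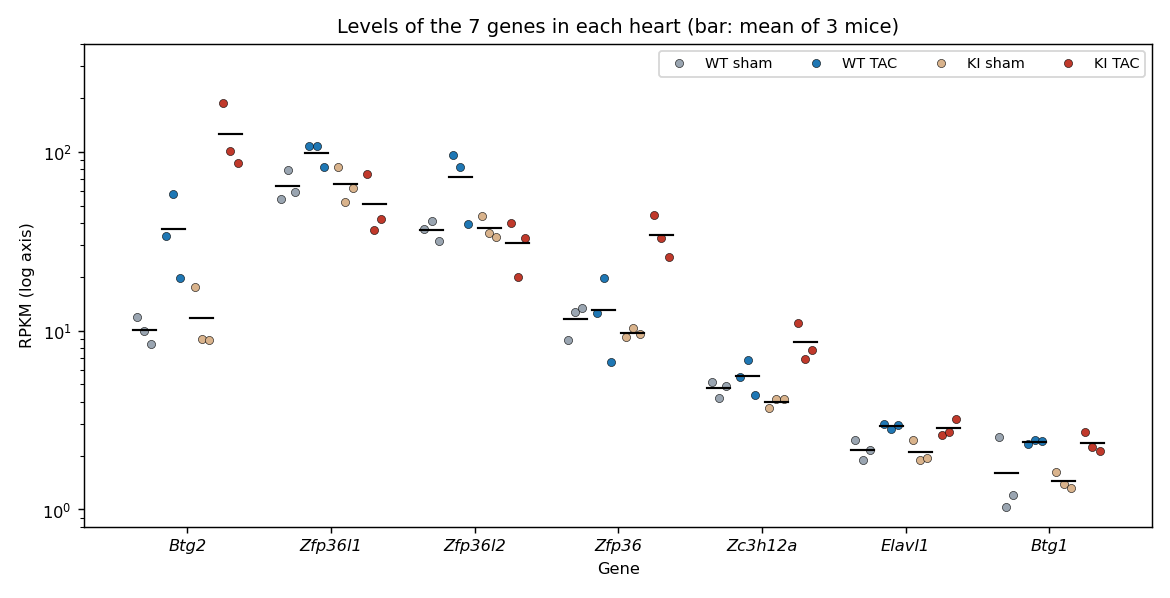
RPKM (log axis) of each gene in each of the 12 hearts, with a horizontal bar for the mean of 3 mice and colours for the groups. Btg2, Zfp36 and Zc3h12a were highest in KI TAC hearts, with no overlap with any other group, whereas Zfp36l1 and Zfp36l2 were highest in mice 7 and 9 of WT TAC.

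Zfp36 rose after TAC in KI hearts, and its values after TAC in WT hearts overlapped the sham values. The gene lies on chr7:28376784-28380253, minus strand. It measured 8.83, 12.7 and 13.3 RPKM in WT sham, 12.5, 19.7 and 6.67 in WT TAC, 9.15, 10.3 and 9.53 in KI sham, and 44.5, 32.8 and 25.7 in KI TAC. The lowest KI TAC heart was thus above the highest of the other 9 hearts, while WT TAC mouse 10 was below every sham heart. The mean was 3.55 times as high in KI TAC as in KI sham, a difference of 1.70 ± 0.30 (SE) on the log2 scale (limma, adjusted p = 0.00166). In WT hearts the difference was 0.05 ± 0.30, with a 95% confidence interval of −0.60 to 0.70 (limma, adjusted p = 0.936). Leaving out WT TAC mouse 10 gave 0.42 in WT hearts, and leaving out mouse 9, the highest, gave −0.29, and neither passed the test. Against WT TAC, KI TAC hearts were 1.42 ± 0.30 higher (limma, adjusted p = 0.0145), and 1.04 higher without WT TAC mouse 10 (limma, adjusted p = 0.0315), and this call was lost when the fit held only these 6 mice (adjusted p = 0.0682 by limma), without WT TAC mouse 7 (0.0598) and without KI TAC mouse 6 (0.0573). An antisense gene, Gm44710, overlaps Zfp36 on the opposite strand and measured 0.774 to 7.27 RPKM. The library protocol keeps strand, but the strand setting of the counting is not given in the sources used here.

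After TAC, Zfp36l1 and Zfp36l2 were lower with the knock-in than without it. Zfp36l1 (chr12:80107754-80113013, minus strand) measured 54.7, 79.0 and 59.3 RPKM in WT sham, 107, 107 and 81.6 in WT TAC, 82.2, 52.1 and 62.7 in KI sham, and 74.6, 36.7 and 42.3 in KI TAC. All WT TAC hearts were above the WT sham hearts and above the KI TAC hearts, and KI TAC overlapped KI sham. The difference in WT hearts did not pass the test (0.62 ± 0.27, limma adjusted p = 0.151, and 0.74 and 0.112 without WT TAC mouse 10), nor did the difference in KI hearts (−0.40 ± 0.27, limma adjusted p = 0.303), but KI TAC hearts were lower than WT TAC hearts by 0.99 ± 0.27 on the log2 scale (limma, adjusted p = 0.0332), and by 1.12 without WT TAC mouse 10 (limma, adjusted p = 0.0405). With libraries scaled by median ratios, the last difference was −0.83 with an adjusted p of 0.0955 by limma (0.0985 by limma-voom and 0.0844 in the fit of these 6 mice alone), and it was −0.79 without KI TAC mouse 6 (adjusted p = 0.145 by limma). The call was also lost without WT TAC mouse 7 (0.131 by limma), WT TAC mouse 9 (0.0601) and KI TAC mouse 7 (0.0640). The range of the adjusted p over all alternatives was 0.0164 to 0.145 by limma. Zfp36l1 shares 1491 bases with the long noncoding gene Gm26669 on the opposite strand, which was not analysed here.

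Zfp36l2 (chr17:84183931-84187947, minus strand) measured 37.0, 41.1 and 31.6 RPKM in WT sham, 95.5, 82.1 and 39.5 in WT TAC, 43.9, 35.3 and 33.4 in KI sham, and 40.1, 19.9 and 32.7 in KI TAC. Mice 7 and 9 of WT TAC were far above every other heart, while mouse 10 lay within the sham range and below KI TAC mouse 5. KI TAC was lower than WT TAC by 1.16 ± 0.31 (limma, adjusted p = 0.0310), and by 1.54 without WT TAC mouse 10 (limma, adjusted p = 0.00840), with adjusted p-values by limma between 0.00840 and 0.148 over the alternatives. The call was lost without WT TAC mouse 7 (limma, adjusted p = 0.148), WT TAC mouse 9 (0.0630) and KI TAC mouse 6 (0.140), and also with median-ratio scaling (0.0736), limma-voom (0.0731) and the fit of these 6 mice alone (0.104). The difference after TAC in WT hearts was 0.88 ± 0.31 (limma, adjusted p = 0.0804), and it was 1.26 without WT TAC mouse 10 (limma, adjusted p = 0.00855), 0.63 without mouse 7 (0.292) and 0.74 without mouse 9 (0.208). In KI hearts it was −0.32 ± 0.31 (limma, adjusted p = 0.489). The antisense gene AC132455.1, which was not analysed here, overlaps Zfp36l2 on the opposite strand and shares 105 bases with it.

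Because the 3 paralogs are measured in the same library, their shares of the summed RPKM do not depend on how libraries are scaled. Zfp36 made up 8.79 to 12.8% of this sum in WT sham, 5.22 to 9.42% in WT TAC, 6.77 to 10.5% in KI sham and 25.5 to 36.7% in KI TAC. The KI TAC hearts thus had a make-up of the paralog pool that no other heart had. Between Zfp36l2 and Zfp36l1 the log2 ratio was −0.72 ± 0.30 in KI TAC and −0.53 ± 0.46 in WT TAC (SD, n = 3), against −0.81 ± 0.21 in WT sham and −0.79 ± 0.20 in KI sham, and its ranges overlapped between all groups. The summed RPKM was 184 ± 48.7 in WT TAC (215, 209 and 128 in mice 7, 9 and 10) and 116 ± 37.4 in KI TAC, and 113 ± 17.7 and 113 ± 19.8 in WT sham and KI sham. These shares are given as a description, with no test.

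**Figure D3:**
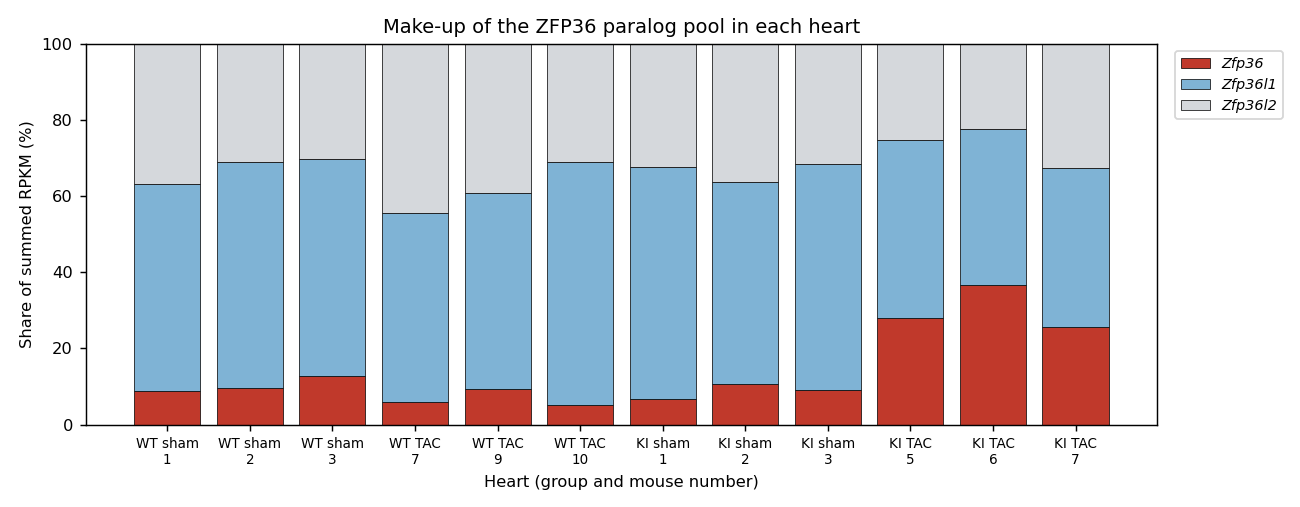
Share of each paralog in the summed RPKM of Zfp36, Zfp36l1 and Zfp36l2, as stacked bars from 0 to 100% for each of the 12 hearts. Zfp36, in red, takes 25.5 to 36.7% in the KI TAC hearts and at most 12.8% in the other 9.

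Zc3h12a, the gene of Regnase-1, also rose after TAC in KI hearts. It lies on chr4:125118423-125127840, minus strand, and measured 5.17, 4.21 and 4.91 RPKM in WT sham, 5.53, 6.87 and 4.37 in WT TAC, 3.68, 4.15 and 4.15 in KI sham, and 11, 6.96 and 7.81 in KI TAC. All KI TAC hearts were above all other hearts, although KI TAC mouse 6 (6.96) was close to WT TAC mouse 9 (6.87). The rise in KI hearts was 0.92 ± 0.19 (limma, adjusted p = 0.00353), and the WT difference was 0.18 ± 0.19, with an interval of −0.22 to 0.58 (limma, adjusted p = 0.565), and 0.32 without WT TAC mouse 10 (limma, adjusted p = 0.296). KI TAC against WT TAC did not pass the test (0.54 ± 0.19, limma adjusted p = 0.0759), but it did without WT TAC mouse 9 (0.67, limma adjusted p = 0.0390). It was 0.40 without WT TAC mouse 10 (limma, adjusted p = 0.215) and 0.36 without KI TAC mouse 5 (0.213). Among the 7 genes, Zc3h12a was alone in showing no overlap between the sham groups, with KI sham below WT sham, but the difference was −0.21 ± 0.19 (limma, adjusted p = 1.00).

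Btg2 rose after TAC in both genotypes and had the largest differences of the 7 genes in both genotypes after TAC and between the TAC groups. It is an early target of p53 and of mitogens that restrains the cell cycle, and it lies on chr1:134075170-134079120, minus strand. Its values were 11.9, 9.88 and 8.46 RPKM in WT sham, 33.7, 57.8 and 19.8 in WT TAC, 17.4, 8.99 and 8.90 in KI sham, and 187, 101 and 86.9 in KI TAC. No TAC heart overlapped a sham heart, and no KI TAC heart overlapped a WT TAC heart. The mean was 3.68 times as high after TAC in WT hearts (1.66 ± 0.37, limma adjusted p = 0.0116, and 2.04 and 0.00331 without WT TAC mouse 10) and 10.6 times as high in KI hearts (3.29 ± 0.37, limma adjusted p = 0.000103). Both were called under each of 12 alternatives, with adjusted p-values by limma of up to 0.0487 in WT and 0.00103 in KI. KI TAC exceeded WT TAC by 1.77 ± 0.37 (limma, adjusted p = 0.0131), and by 1.4 without WT TAC mouse 10 (limma, adjusted p = 0.0363), and this call was lost without WT TAC mouse 7 (limma, adjusted p = 0.0598) and in the fit of these 6 mice alone (limma, adjusted p = 0.0571).

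Btg1, the close paralog of Btg2, was higher on average after TAC in both genotypes, but neither difference passed the test. Its values on chr10:96617006-96622809, plus strand, were 2.55, 1.03 and 1.2 RPKM in WT sham, 2.33, 2.43 and 2.41 in WT TAC, 1.63, 1.38 and 1.31 in KI sham, and 2.71, 2.24 and 2.12 in KI TAC. WT sham mouse 1 stood at the level of the TAC hearts, and the other 5 sham hearts were below all TAC hearts. The differences after TAC were 0.43 ± 0.18 in WT (limma, adjusted p = 0.141) and 0.46 ± 0.18 in KI (limma, adjusted p = 0.0853). The KI difference passed with quantile scaling (limma, adjusted p = 0.0484), median-ratio scaling (0.0422) and limma-voom (0.0410). Without WT sham mouse 1 the WT difference was 0.68 (limma, adjusted p = 0.0131), and it was 0.28 without WT sham mouse 2 (0.405) and 0.34 without WT sham mouse 3 (0.349). Btg1 was read by 128 to 433 reads per heart, the fewest of the 7 genes, and 312 bases of it match Gm14519 at 98.7% identity.

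Elavl1 (chr8:4285382-4325413, minus strand) was higher on average after TAC in both genotypes. It measured 2.44, 1.89 and 2.14 RPKM in WT sham, 2.99, 2.83 and 2.96 in WT TAC, 2.44, 1.88 and 1.94 in KI sham, and 2.61, 2.70 and 3.21 in KI TAC. Every TAC heart was above every sham heart. The differences were 0.32 ± 0.14 in WT (limma, adjusted p = 0.145) and 0.32 ± 0.14 in KI (limma, adjusted p = 0.106), and neither passed the test. The KI difference passed with quantile scaling (0.42, limma adjusted p = 0.0170), median-ratio scaling (0.42, 0.0198) and limma-voom (0.59, 0.0139), where the WT difference was 0.25, 0.29 and 0.41 and did not pass. The protein-coding gene Ccl25 (0.146 to 0.391 RPKM) overlaps Elavl1 on the opposite strand. KI TAC and WT TAC differed by −0.03 for Elavl1 (interval −0.33 to 0.26) and by −0.02 for Btg1 (interval −0.41 to 0.38), and the sign of both turned when libraries were scaled by quantiles (0.12 and 0.14).

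Counted together, 1 of the 7 genes was called higher and none lower for WT TAC against WT sham, where 6.96% of all genes were called higher and 4.6% lower. For KI TAC against KI sham, 3 were called higher (Btg2, Zfp36 and Zc3h12a) against a background of 8.57%, and none lower against 14.7%. For KI TAC against WT TAC, 2 were called higher (Btg2 and Zfp36) against 2.92% and 2 lower (Zfp36l1 and Zfp36l2) against 8.13%. None was called for KI sham against WT sham, where 0.0178% of all genes were and none of the 7 had an unadjusted p under 0.05 by limma. The median difference over the 7 genes was 0.43, 0.46, −0.02 and −0.03 in these comparisons, beside 0.04, −0.10, −0.12 and 0.01 over all genes. In the count of hearts without overlap, 3 of the 7 genes separated WT TAC from WT sham (35.1% of all genes did), 5 separated KI TAC from KI sham (38.3%), 4 separated KI TAC from WT TAC (29.5%) and 1 separated the sham groups (3.27%). With 3 mice per group the smallest two-sided p of an exact permutation test on a single gene is 0.1, and each separated gene had this value. The comparisons share groups, as WT TAC and KI TAC each enter more than 1 of them.

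**Figure D4:**
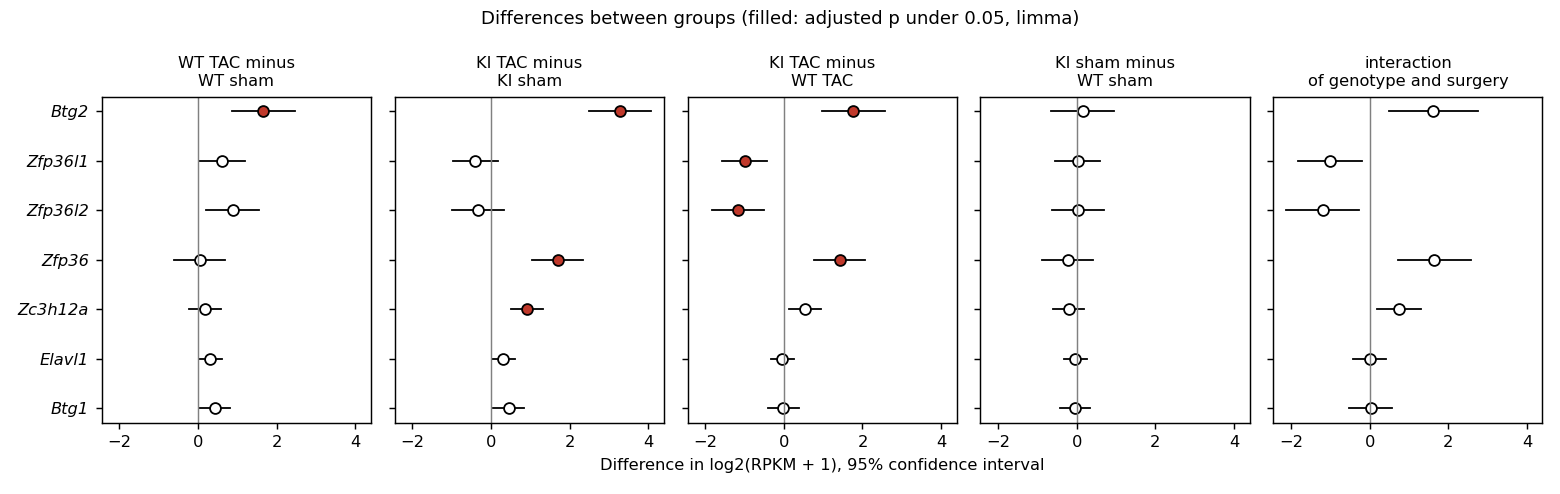
Difference in log2(RPKM + 1) of each gene for the 5 comparisons, as points with 95% confidence intervals from limma and filled points for adjusted p under 0.05. Btg2 is filled in the first 3 panels, Zfp36 and Zc3h12a are filled for KI TAC minus KI sham, Zfp36 also for KI TAC minus WT TAC, and Zfp36l1 and Zfp36l2 are filled to the left of 0 for KI TAC minus WT TAC.

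The interaction of genotype and surgery asks whether the response to TAC differed between WT and KI hearts. None of the 7 genes passed, and 0% of all genes did. At an unadjusted p under 0.05, 5 of the 7 genes and 1668 of 11240 genes were found by limma. The interaction was 1.64 ± 0.43 for Zfp36 (limma, adjusted p = 0.147) and 1.62 ± 0.52 for Btg2 (limma, adjusted p = 0.203). It was 0.74 ± 0.26 for Zc3h12a (limma, adjusted p = 0.234), −1.01 ± 0.38 for Zfp36l1 (0.248) and −1.2 ± 0.44 for Zfp36l2 (0.244). Without WT TAC mouse 9, Zfp36 (1.99, limma adjusted p = 0.0205) and Btg2 (2.0, limma adjusted p = 0.0486) passed. A different response of these genes in the 2 genotypes was therefore not shown at the threshold, even where a call was made in one genotype only.

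The promoters of Zfp36, Btg2 and Zfp36l1 are shown to compare a pair of genes that rose in KI TAC hearts with a paralog that did not. RefSeq promoters (GRCm38.p6, 250 bases before to 50 after the start) were matched for 6 of the 7 genes, and none was matched for Zfp36l2. Both strands were searched for TGACGTCA (CRE), TGANTCA (a loose form of the AP-1 site, with any base in the middle), CACGTG (E-box), the CArG box and the NF-kB motif, and matches are in capitals.
Zfp36, chr7:28379179-28379478, minus strand: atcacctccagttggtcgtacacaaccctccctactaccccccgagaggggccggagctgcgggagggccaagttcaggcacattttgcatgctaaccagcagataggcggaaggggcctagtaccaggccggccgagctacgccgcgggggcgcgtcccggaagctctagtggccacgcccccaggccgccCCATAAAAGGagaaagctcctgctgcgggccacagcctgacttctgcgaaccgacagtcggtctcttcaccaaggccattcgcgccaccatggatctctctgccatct
Btg2, chr1:134079106-134079405, minus strand: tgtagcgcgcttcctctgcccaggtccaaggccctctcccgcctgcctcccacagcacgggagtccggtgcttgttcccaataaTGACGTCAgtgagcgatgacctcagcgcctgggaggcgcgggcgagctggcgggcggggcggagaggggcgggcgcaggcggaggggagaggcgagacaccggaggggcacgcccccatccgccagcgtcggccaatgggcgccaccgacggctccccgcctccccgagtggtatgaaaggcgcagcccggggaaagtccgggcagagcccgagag
Zfp36l1, chr12:80112964-80113263, minus strand: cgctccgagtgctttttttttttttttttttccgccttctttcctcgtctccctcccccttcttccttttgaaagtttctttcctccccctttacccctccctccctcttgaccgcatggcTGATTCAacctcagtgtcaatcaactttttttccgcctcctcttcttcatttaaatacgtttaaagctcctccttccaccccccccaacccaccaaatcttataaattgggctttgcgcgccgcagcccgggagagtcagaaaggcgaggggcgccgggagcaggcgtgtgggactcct
Zfp36 held 1 CArG box 58 bases before the start, and Btg2 held 1 CRE 166 bases before it. Zfp36l1 held 1 match to TGANTCA, with the letters TGATTCA, 129 bases before it. The promoters of Btg1, Zc3h12a and Elavl1 held none of the 5 motifs. Among 32851 promoters, 1.63% held a CArG box, 1.79% a CRE, 7.81% a match to TGANTCA, 7.15% an E-box and 8.46% an NF-kB motif. None of the matches overlapped another of the motifs. The GENCODE start lies 1025 bases from the RefSeq start used here in Zfp36 and 313 bases from it in Elavl1, beyond the window searched. A match describes these letters only, and no match says only that they are not in this window.

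By Pearson's r of log2(RPKM + 1) over the 12 hearts, the genes most like Zfp36 were Tinagl1 (r = 0.959), Cebpd (0.955), an early transcription factor of the acute phase response, and Klhl2 (0.945). Those most like Zc3h12a were Atf4 (0.981), a transcription factor of the integrated stress response, Sdc4 (0.970) and Zfp593 (0.963). Btg2 was most like Nolc1 (0.988), Ppp2r2a (0.986) and Ereg (0.984), the gene of the growth factor epiregulin. For Zfp36l2 they were Herpud2 (0.988), Ier5l (0.981) and Klf16 (0.965), for Zfp36l1 Itpripl2 (0.95), Tbc1d12 (0.942) and P3h2 (0.940), for Btg1 Irf8 (0.921), Herc3 (0.920) and Plekho2 (0.910), and for Elavl1 Adgrd1 (0.977), Celf1 (0.962) and Lrrfip1 (0.957). No gene was on the lists of more than 1 of the 7. These values describe 12 libraries in 4 groups and were not tested.

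In the machinery to which these proteins deliver mRNAs, calls were no more frequent than over all genes. Of 63 tested genes in 4 lists, 6.35% were called higher in WT hearts after TAC, beside 6.96% of all genes, and 4.76% in KI hearts, beside 8.57%. Of 14 deadenylase genes of the CCR4-NOT and PAN complexes, 1 was called higher in WT hearts after TAC, Cnot6, a catalytic subunit (0.56 ± 0.15, limma adjusted p = 0.0273), and none in KI hearts. None of 17 genes of decapping and 5′ to 3′ decay was called in any comparison. Of 14 genes of the RNA exosome, Ttc37 (0.58) and Dis3 (0.48) were called higher in WT hearts, and Exosc2 (0.55) and Exosc1 (0.47) in KI hearts. Ttc37 and Dis3 were under 1 RPKM in every sham heart but KI sham mouse 1, so they passed the filter only through TAC hearts. Of 18 tested genes of other RNA-binding regulators, Pabpc1, the poly(A)-binding protein, was called higher in WT (0.98 ± 0.23, limma adjusted p = 0.0167) and Hnrnpd, which encodes the AU-rich element binder AUF1, in KI (0.41 ± 0.13, limma adjusted p = 0.0378). In these 4 lists none was called lower, beside 4.6% of all genes in WT and 14.7% in KI hearts, and none was called between the TAC groups, beside 2.92% higher and 8.13% lower. Of the genes named here, Ttc37 kept its call with each mouse left out in turn, and the others lost it without at least 1 of them (adjusted p by limma of up to 0.118).

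The other BTG/TOB genes are a list of 3, and Btg3 was called higher after TAC in KI hearts and Tob2 lower in WT hearts. Over all genes 8.57% were called higher in KI and 4.6% lower in WT hearts. Btg3 measured 0.805 ± 0.17 RPKM in KI sham and 2.14 ± 0.07 in KI TAC (0.80 ± 0.12, limma adjusted p = 0.000463), against 0.807 ± 0.01 in WT sham and 1.28 ± 0.13 in WT TAC (0.33 ± 0.12, limma adjusted p = 0.0808). Every sham heart was under 1 RPKM for Btg3 (at most 0.979), so it passed the filter on low values only through TAC hearts. Its call after TAC is therefore not separate support for a rise. KI TAC exceeded WT TAC for Btg3 by 0.47 ± 0.12 (limma, adjusted p = 0.0257). Tob2 was called lower in WT hearts after TAC, from 48.9 ± 13.1 to 23.0 ± 8.85 RPKM (−1.08 ± 0.26, limma adjusted p = 0.0174), and higher in KI TAC than in WT TAC (0.88 ± 0.26, limma adjusted p = 0.0463). In both genotypes it was lower on average after TAC (−0.30 in KI hearts, limma adjusted p = 0.427). Tob1 was not called. The interaction of genotype and surgery did not pass for Btg3 (0.47, limma adjusted p = 0.234) or Tob2 (0.77, limma adjusted p = 0.344). The rise of Btg3 in KI hearts held with each mouse left out, but the other calls did not. The call of Tob2 in WT hearts was lost without WT sham mouse 2, WT sham mouse 3 or WT TAC mouse 7 (limma, adjusted p of up to 0.0788), and between the TAC groups it held only without WT TAC mouse 9 (up to 0.167). The difference of Btg3 between the TAC groups was lost without WT TAC mouse 7 or 10 and without KI TAC mouse 5 or 6 (limma, adjusted p of up to 0.101).

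The p38-MK2 pathway phosphorylates ZFP36 proteins and holds back their activity. The list of 9 genes used for it holds kinases and also Ppp2ca and Dusp1, which encode phosphatases, so its counts and medians mix genes of different function. Among these 9 genes none was called in WT hearts, while in KI hearts 2 were called higher and 3 lower. Over all genes, 6.96% were called higher and 4.6% lower in WT hearts, and 8.57% and 14.7% in KI hearts. The median over the 9 genes was 0.19 in WT and 0.18 in KI hearts, beside 0.04 and −0.10 over all genes. The higher ones were Map2k3 (0.83 ± 0.23, limma adjusted p = 0.0188), an activating kinase of p38, and Ppp2ca (0.70), a catalytic subunit of the phosphatase PP2A. The lower ones were Map2k6 (−0.79), the other activating kinase, Mapk14 (−0.75), which is p38α, and Mapkapk3 (−0.73), which is MK3. Map2k6 was near the floor, at 0.129 to 0.326 RPKM in KI TAC. It was under 1 RPKM in every TAC heart and passed the filter only through sham hearts. Mapkapk2, the gene of MK2, was not called (−0.25 ± 0.27, limma adjusted p = 0.526). None of the 9 was called for KI TAC against WT TAC. The call of Map2k3 was lost without KI sham mouse 1, KI sham mouse 3 or KI TAC mouse 5 (limma, adjusted p of up to 0.0768), and that of Mapk14 without KI sham mouse 3, KI TAC mouse 5 or KI TAC mouse 6 (up to 0.0725). The calls of Map2k6, Mapkapk3 and Ppp2ca held with each mouse left out.

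Of 13 tested genes whose transcripts are known as targets of ZFP36 or Regnase-1, 8 were called higher after TAC in WT hearts and 10 in KI hearts, and none lower. Over all genes 6.96% and 8.57% were called higher. The list was chosen with earlier results of these data known, so its share cannot be read as a result about decay targets. Ccl2 and Cxcl1 were under 1 RPKM in every sham heart (at most 0.755 and 0.398), and Fos in most of them. These genes passed the filter on low values only through TAC hearts. The medians of the list were 1.04 and 1.80, beside 0.04 and −0.10 over all genes. Vegfa, Ccnd1 and Pim1 were not called in either genotype, and Vegfa was 0.04 in WT and −0.48 in KI hearts. On the log2(RPKM + 1) scale, which shrinks changes of genes at low levels, the largest rises in WT hearts were in Ccl2, a chemokine for monocytes (3.06 ± 0.31, limma adjusted p = 8.10e-05), Myc (1.97 ± 0.41, limma adjusted p = 0.00846) and Tfrc, the transferrin receptor (1.88 ± 0.43, limma adjusted p = 0.0132). In KI hearts they were in Fos (4.08 ± 0.81, limma adjusted p = 0.00317), Ccl2 (3.74 ± 0.31, limma adjusted p = 1.26e-05) and Myc (3.19 ± 0.41, limma adjusted p = 0.000206). The order differs by the ratio of mean RPKM. By that ratio Plaur (0.846 to 5.06) rose more in WT hearts than Myc (2.83 to 15.3) and Tfrc (2.98 to 13.9). In KI hearts Cxcl1 (0.183 to 4.58) rose more than Myc (3.67 to 47.9). Fos spread most between mice, with 200 RPKM in KI TAC mouse 5 and 22.8 and 7.38 in the others. For KI TAC against WT TAC, 4 were called higher (2.92% of all genes were), namely Myc (1.5), Cxcl1 (1.28), Plaur (1.26) and Ptgs2 (0.75). In the same comparison Zfp36 was called higher and Zfp36l1 and Zfp36l2 lower, and Zc3h12a was not called. The calls of Myc and Ptgs2 were each lost without WT TAC mouse 7 or 10 and without KI TAC mouse 5 or 6 (limma, adjusted p of up to 0.113 and 0.0781). Cxcl1 no longer passed without KI TAC mouse 6 (limma, adjusted p = 0.0541), nor Plaur without WT TAC mouse 7 (0.0761). When only the 6 TAC mice were fitted, none of the 4 passed (limma, adjusted p of 0.0771 to 0.119). The call of Tfrc in WT hearts was lost without WT sham mouse 3 (limma, adjusted p = 0.0616). Of the 20 genes in the list, 6 were not analysed here, since they are not in the table used.

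**Figure D5:**
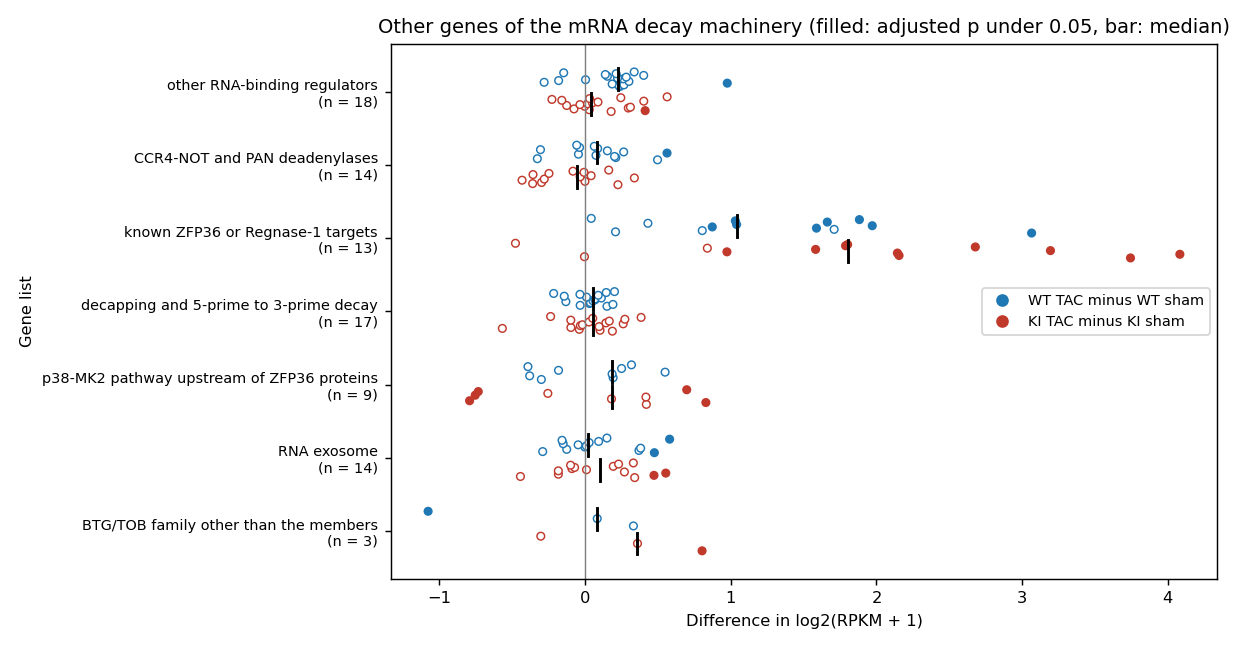
Difference in log2(RPKM + 1) after TAC for each tested gene of 7 lists, in blue for WT and red for KI hearts, with filled points for adjusted p under 0.05 (limma) and black bars for list medians. The known targets have medians of 1.04 in WT and 1.80 in KI, whereas the medians of the other lists lie between −0.06 and 0.36. All lists were chosen with earlier results of these data known.

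Over the whole table, genes with and without the nonamer were counted apart, a grouping that was chosen after values were seen and is given as a description. Of 726 tested genes with 1 or more nonamers, 8.68% were called higher and 3.58% lower for WT TAC against WT sham, beside 7.07% and 4.22% of 9753 genes without one. For KI TAC against KI sham the shares were 12.7% and 13.1%, beside 8.31% and 14.4%, and for KI TAC against WT TAC they were 2.2% and 9.92%, beside 2.71% and 8.12%. Among the 49 genes with 3 or more nonamers, the shares called higher and lower were 14.3% and 4.08% for WT TAC against WT sham. They were 10.2% and 18.4% for KI TAC against KI sham, and 4.08% and 4.08% for KI TAC against WT TAC. The 3′ UTRs with a nonamer were longer (median of 2058 bases against 927).

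Markers of blood cells moved with TAC as well. The summed RPKM of 4 neutrophil genes was 0.508 to 1.27 in WT sham, 3.75 to 10.3 in WT TAC, 0.395 to 0.505 in KI sham and 4.28 to 21.2 in KI TAC, and 2 of 3 tested were called higher in WT and all 3 in KI hearts, while the sums in the TAC groups overlapped. The WT count of neutrophil genes was 0 without WT sham mouse 3 or WT TAC mouse 9. With 1 KI mouse left out the KI count was 2, except without KI TAC mouse 7, where it was 3. The tested genes S100a8, S100a9 and Csf3r were at most 0.31, 0.48 and 0.47 RPKM in sham hearts. They thus passed the filter of 1 RPKM only through TAC hearts, so their calls are not separate support for a rise. The neutrophil sum was 5.52, 10.3 and 3.75 in WT TAC mice 7, 9 and 10, and 21.2, 11.8 and 4.28 in KI TAC mice 5, 6 and 7. Macrophage markers summed to 56.8 to 78.1 in WT sham, 73.5 to 135 in WT TAC, 61.2 to 72.4 in KI sham and 74.1 to 86.6 in KI TAC, and 3 of 6 were called higher in WT hearts after TAC and 1 of 6, Csf1r, lower in KI hearts, while 3 of 6 were called lower in KI TAC against WT TAC hearts. The highest macrophage sum was that of WT TAC mouse 10, with 73.5 and 92.4 in the other WT TAC hearts. Without mouse 10, 2 of 6 were called higher in WT hearts and 3 of 6 lower between the TAC groups. Without KI TAC mouse 6 only Fcgr1 was called lower between the TAC groups. Csf1r lost its call in KI hearts with any 1 of the 6 KI mice left out. Erythroid markers summed to 145 to 171 in WT sham, 74.8 to 114 in WT TAC, 134 to 244 in KI sham and 97.7 to 257 in KI TAC, so that the WT groups did not overlap, but none of the 5 genes was called. Endothelial markers (237 to 332 in all hearts) were not called in any comparison. The part of these cells in the differences of the 7 genes was not tested, and markers of lymphocytes, atrial and skeletal muscle were not analysed here.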

How the data were processed

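Poly(A) RNA of 12 mouse hearts (4 groups of 3, from the genotype and treatment labels) was sequenced as single reads of strand-specific libraries. According to the submitters' processing notes, Trimmomatic 0.39, HISAT2 2.2.1 on GRCm38, HTSeq 0.6.1, edgeR 3.18.1 and limma 3.32.10 were used. The authors deposited a single table whose unit is not named. Its values were identified here as RPKM, since multiplying them by exon length (GENCODE M21, 13546 of 13552 genes) and by library size gives whole reads for 97.9 to 98.3% of the 2584 to 3723 low values of each heart within a tolerance of 0.05, and the recovered reads per gene allowed an added count-based fit. The annotation release of the counting is not given without conflict in the sources used here.

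From the deposited RPKM values, log2(RPKM + 1) was computed for the 11240 genes that reached 1 RPKM in 3 mice or more. limma 3.58.1 in R 4.3.3 (lmFit with 4 groups, contrasts, eBayes with trend) was fitted to all 12 mice, Benjamini-Hochberg adjustment ran over all genes tested, and the threshold was 0.05. The fit was tested on simulated data. The text names all 7 genes, up to 3 called genes with the largest differences per pathway list and comparison, and the 3 genes most like each by Pearson's r, leaving out predicted gene models. Ppp2ca, Mapkapk3, Mapkapk2, Tob1, Ptgs2, Vegfa, Ccnd1, Pim1, Fcgr1, Csf1r and Bcl2l1 were named after their values were seen. The genes and the lists, written from general knowledge, were chosen with earlier results of these data known. Mouse numbers in the titles were taken as names within a genotype. Deviations of same-numbered sham mice from their group means correlated at −0.225, −0.302 and 0.44. The highest correlation with a KI sham mouse of another number was 0.434, 0.246 and 0.0878. With 3 mice per group, these values cannot decide whether same-numbered mice share a batch. Alternatives were another pseudocount, no filter, quantile and median-ratio scaling, limma-voom on recovered reads, fits of the 2 groups compared, a replicate block and leaving out each mouse. Figures and values used Python 3.11.15, pandas 2.3.3, scipy 1.17.1 and matplotlib 3.10.9.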

Additional observations from a re-analysis of the deposited data

How the results depend on the processing

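The calls of Btg2 after TAC in both genotypes and of Zfp36 and Zc3h12a in KI hearts held under all 12 alternatives of their comparison. The number of the 7 genes called for KI TAC against KI sham rose from 3 to 5 with quantile scaling, 5 with median-ratio scaling and 5 with limma-voom on recovered reads, where Btg1 and Elavl1 were added. For KI TAC against WT TAC it fell from 4 to 2 with median-ratio scaling, 2 with limma-voom and 0 in the fit of the 2 groups alone (adjusted p by limma of 0.0571 to 0.104 for the 4 genes). Leaving out 1 mouse at a time gave 1 to 2 calls for WT TAC against WT sham, 0 to 4 between the TAC groups (0 when WT TAC mouse 7 and 1 when KI TAC mouse 6 was left out) and 0 to 2 for the interaction. The replicate block of mouse numbers in the sham comparison called 0 of the 7 genes, as did the fit without it. Whether the numbers pair the mice could not be decided.

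Of the pathway genes, 33 differences (26 of them called) were refitted. With 1 mouse left out, 50 of 210 values lost their call, and under the other alternatives 13 of 196 did and 1 gained one (Vegfa in KI hearts with quantile scaling, limma adjusted p = 0.0479). Signs turned only for differences that were not called. With quantile scaling, median-ratio scaling and limma-voom, in this order, the difference of KI TAC from WT TAC was 0.14, 0.10 and 0.12 for Btg1 and 0.12, 0.082 and 0.11 for Elavl1, and the interaction of Elavl1 was 0.17, 0.12 and 0.18, and 0.0018 with a pseudocount of 0.1. Zfp36 in WT hearts was −0.015 with quantile scaling. With 1 mouse left out, the ranges were −0.013 to 0.13 for Vegfa in WT hearts, −0.29 to 0.42 for Zfp36 in WT hearts, −0.091 to 0.033 for Btg1 and −0.10 to 0.0090 for Elavl1 between the TAC groups, −0.22 to 0.18 for Btg1 and −0.069 to 0.079 for Elavl1 in the interaction, and, between the sham groups, −0.15 to 0.18 for Zfp36l1, −0.080 to 0.12 for Zfp36l2, −0.20 to 0.21 for Btg1, −0.15 to 0.30 for Btg2 and −0.11 to 0.031 for Elavl1. The cause of these changes was not tested. Btg1 had the fewest reads of the 7 genes, and every group held 3 mice.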
